A study of Mus musculus with 14 samples.

Results

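The first response of mouse neural stem cells to differentiation was read from 6 of the 14 RNA-seq libraries of the series, 3 taken at day 2 of differentiation and 3 from undifferentiated cells. Each stage was represented by 1 library of cells given naloxone, 1 of cells given DAMGO and 1 of a control that the labels call NC, and the libraries were compared within treatments. All 6 came from cells at passage 8 of a mouse strain called OG2, known for its transgene that reports the activity of Pou5f1. Naloxone blocks opioid receptors, and the peptide DAMGO activates the mu type. Doses, the medium, the way differentiation was started and the number of cultures behind a library are not given in the labels. No condition was replicated, so every SD below is over 3 libraries that differ in treatment. The p-values measure a spread pooled over 12 libraries, those of day 4 and day 8 included. This spread between libraries may be technical.

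Neural stem cells divide in culture as long as growth factors drive receptor tyrosine kinases, ERK signalling and D-type cyclins. When they differentiate they leave the cell cycle and give rise to astrocytes, cells of the oligodendrocyte lineage and neurons. Dividing cells carry transcripts for DNA replication, mitosis, ribosome assembly and glycolysis, and the Notch pathway holds part of the cells in a progenitor state.

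The day 2 libraries held 6852215 (NC), 7635162 (naloxone) and 5409103 (DAMGO) estimated counts, and the undifferentiated libraries 4913497, 5750975 and 5659380. Values for single libraries are given below in this order, NC, naloxone and DAMGO, as CPM (counts relative to the library's TMM-scaled total). A number with ± that follows the levels of a gene is its fitted log2 change, day 2 minus undifferentiated, with its SE, and a gene is said to have risen or fallen only where its adjusted p was under 0.05. The markers of neural stem cells were present at both stages, with Sox2 at 558, 512 and 546 CPM at day 2 and 319, 321 and 351 CPM in undifferentiated cells. Of 8 such markers 5 rose and 2 fell, against 33.7% and 35.9% of all genes tested. Those that fell were Nes, with means of 426 CPM at day 2 and 1810 CPM in undifferentiated cells, and Vim, with 1992 and 3018 CPM. Pou5f1, the gene whose promoter drives the reporter, had 0 counts in all 6 libraries. None of 11 microglial markers passed the filter on low counts, and their summed level was 1.26 to 1.79 CPM at day 2 and 2.29 to 4.27 CPM in undifferentiated cells. Summed markers of endothelium stood at 2.40 to 3.34 CPM at day 2 and 2.85 to 4.17 CPM in undifferentiated cells, and those of mesenchyme and pericytes at 8.85 to 11.4 CPM at day 2 and 3.46 to 11.1 CPM in undifferentiated cells. Neural crest markers summed to 6.82 to 8.26 CPM at day 2 and 32.5 to 39.1 CPM in undifferentiated cells, most of it from Egr2 and Pou3f1. Ependymal markers summed to 26.0 to 32.5 CPM at day 2 and 5.28 to 7.22 CPM in undifferentiated cells, nearly all from Foxj1, a regulator of motile cilia.

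The day 2 NC library stood apart from the naloxone and DAMGO libraries of the same day along the GC content of transcripts. In the lowest of 10 equal bins of GC content (1093 genes, median 40.7% GC), the median gene differed by -1.19 on the log2 scale in naloxone and by -0.90 in DAMGO against NC at day 2. In undifferentiated cells the same differences were -0.047 and -0.061. Across the stages, the median gene of that bin changed by -1.75 in naloxone, -1.49 in DAMGO and -0.61 in NC. A log2 change is called GC-adjusted below where a trend on GC content and length was first removed across libraries. The GC-adjusted value, or the value without both day 2 drug libraries, is given beside a gene where it moved by over 1.5-fold or where the call ended, and for a list where the balance of its calls shifted. Such shifts were not examined for genes named only for their promoter letters.

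**Figure D1:**
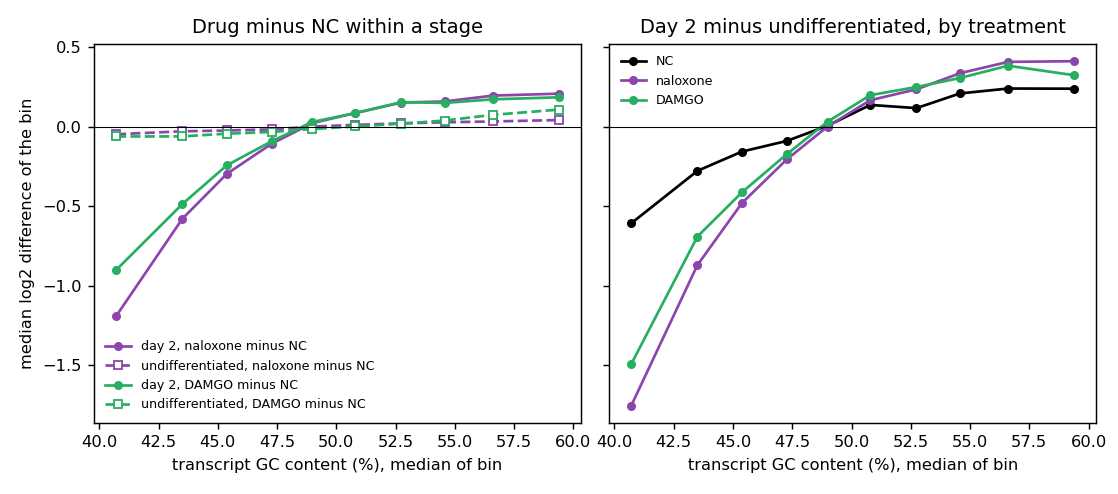
Median log2 difference of the genes in 10 equal bins of transcript GC content (x axis, median GC of the bin in percent). The left panel sets each drug library against NC within day 2 (filled circles) and within undifferentiated cells (open squares), and the right panel sets day 2 against undifferentiated cells for each treatment. The day 2 drug libraries fall to -1.19 (naloxone) and -0.90 (DAMGO) in the bin of lowest GC content, and the undifferentiated ones stay between -0.061 and 0.11.

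In the main analysis most of the genes tested were called changed at day 2. Many of these calls did not hold in every alternative to the processing, as described at the end. Of 13144 genes tested across the whole table with edgeR's quasi-likelihood test, 9155 passed an adjusted p of 0.05 (Benjamini-Hochberg), which is 69.7% of them. Higher at day 2 were 4436 genes (33.7%) and lower were 4719 (35.9%), so any group of genes should be read against these shares. A change of at least 2-fold was reached by 1871 called genes that rose (14.2%) and 2559 that fell (19.5%). At least 8-fold changes numbered 270 upward and 344 downward, and at least 32-fold changes 59 and 47. The median change over all genes tested was -0.0084 on the log2 scale. The groups of 3 libraries did not overlap for 4699 genes that were higher at day 2 (35.8%) and 4791 that were lower (36.5%). Within a treatment, 4879 genes differed at least 2-fold in naloxone, 4624 in DAMGO and 3657 in NC, and 25.7% of the CPM was redistributed between genes in naloxone, 25.2% in DAMGO and 22.6% in NC. Of the called genes, 5 were without counts at day 2 and 36 were without counts in undifferentiated cells.

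**Figure D2:**
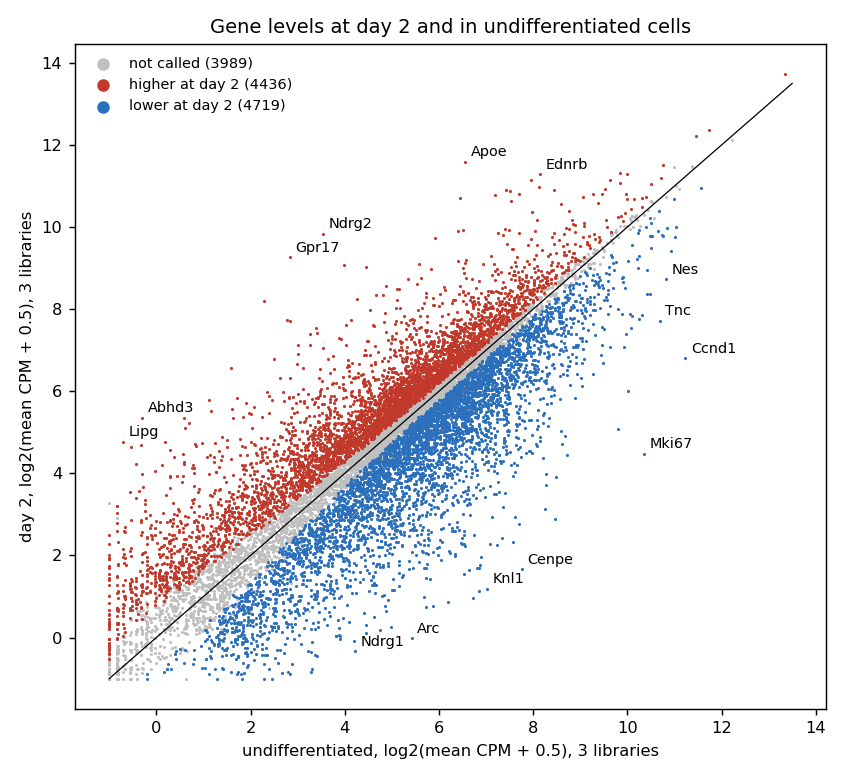
Mean level of each of 13144 genes at day 2 (y axis) against undifferentiated cells (x axis), as log2 of CPM + 0.5 over 3 libraries each, with the line of equal levels. Red points are 4436 genes higher at day 2, blue points 4719 genes lower and grey points genes not called. Gpr17 and Ndrg2 lie far above the line, and Mki67 and Cenpe far below it.

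Among the 12 largest rises were genes of lipases and of glia. Lipg, which encodes endothelial lipase, stood at 26.2, 27.2 and 27.1 CPM at day 2 and at 0, 0.347 and 0 CPM in undifferentiated cells, where it had 2 counts in all. The ratio of day 2 to undifferentiated cells was 219 (95% counting interval 60.5 to 1817). No day 2 library came near the undifferentiated ones.

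Gpr17, a receptor of committed oligodendrocyte precursors, had 550.1, 648 and 641 CPM at day 2, against 5.69, 5.902 and 8.28 CPM in undifferentiated cells, a log2 change of 6.52 ± 0.14 (SE; adjusted p = 5.83e-10). All 3 day 2 libraries were high and the groups lay far apart. Ndrg2, a gene of astrocytes, had 797, 981 and 966 CPM at day 2 and 9.15, 12.7 and 11.5 CPM in undifferentiated cells (6.36 ± 0.12, adjusted p = 5.08e-10), again with no overlap. Abhd3, which encodes a phospholipase of the alpha/beta hydrolase family, averaged 40.4 ± 5.48 CPM at day 2 and 0.311 ± 0.122 CPM in undifferentiated cells (SD, n = 3 each), a log2 change of 6.95 ± 0.21.

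Itih3, a chain of the inter-alpha-trypsin inhibitor that binds hyaluronan, rose by 6.29 ± 0.23 on the log2 scale to 25.5 ± 1.395 CPM, against 0.3001 ± 0.192 CPM in undifferentiated cells. Lrtm2 rose by 6.11 ± 0.36, Tmem132b by 6.02 ± 0.20, the progestin receptor gene Paqr7 by 5.56 ± 0.39 and Lims2, an adaptor of integrin adhesions, by 5.40 ± 0.36. The ratio of day 2 to undifferentiated cells was 132 (95% counting interval 44.9 to 642) for Ccdc190 and 62.3 (95% counting interval 21.1 to 304) for Ccdc3. The histone gene Hist2h2aa2 also rose (5.43 ± 0.56), but it has near-identical copies and its level is uncertain. Apart from Tmem132b, with a mean of 4.38 CPM in undifferentiated cells, these genes had few undifferentiated counts. Leaving out a single undifferentiated library moved the fitted log2 change to as much as 10.35 for Lipg, 9.23 for Ccdc3, 9.15 for Hist2h2aa2, 7.86 for Ccdc190, 7.28 for Lrtm2, 6.92 for Itih3, 6.19 for Lims2 and 6.17 for Paqr7. Leaving out another moved it to as little as 5.01 for Ccdc3, 4.79 for Hist2h2aa2 (GC-adjusted 4.73), 6.26 for Ccdc190, 4.78 for Lims2 and 4.96 for Paqr7.

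The genes with the largest rises had different later levels. Lipg, with 26.8 CPM at day 2, had a mean of 28.7 CPM on day 4 and 1.01 CPM on day 8, and Lrtm2 had means of 18.3, 6.44 and 3.104 CPM on the same 3 days. Ccdc190 had means of 24.3, 39.2 and 161 CPM on these days, and Paqr7 of 15.4, 36.6 and 89.6 CPM. These later levels are given as descriptions, and the steps between day 2, day 4 and day 8 were not tested here.

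Among the 12 largest falls were genes of mitosis and DNA replication, an immediate early gene, an integrin and a hypoxia gene. Cenpe, the kinetochore motor that aligns chromosomes, had 4.79, 1.39 and 1.79 CPM at day 2 and 224, 217 and 213 CPM in undifferentiated cells, a log2 change of -6.38 ± 0.28 (adjusted p = 2.82e-08). The groups were far apart, and the NC library was the highest of day 2. Arc, an activity-regulated gene, had 0.725, 0.379 and 0.359 CPM at day 2 and 42.5, 44.3 and 40.2 CPM in undifferentiated cells (-6.38 ± 0.25). Itga4, the alpha subunit of an integrin that binds fibronectin, had 3.48, 0.758 and 0.897 CPM at day 2 and 112, 121 and 111 CPM in undifferentiated cells (-6.08 ± 0.30). Ndrg1, a gene raised by hypoxia, had 0.145, 0.379 and 0.359 CPM at day 2 and 15.4, 17.7 and 21.3 CPM in undifferentiated cells (-5.85 ± 0.26), and its mean was 107 CPM at day 8. Arc changed by -5.78 and Ndrg1 by -6.68 without both day 2 drug libraries.

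Other large falls were those of the kinetochore scaffold Knl1 (-6.19 ± 0.22), the mitotic kinesin Kif20b (-6.15 ± 0.26), the kinetochore protein Cenpf (-5.75 ± 0.30), Depdc1a (-5.81 ± 0.35), the cohesin acetyltransferase Esco2 (-5.56 ± 0.26), the chromatin ATPase Atad2 (-5.45 ± 0.33) and Fam111a, a protease of replicating chromatin (-5.42 ± 0.29). Without the day 2 NC library these falls were larger, at -7.03 for Cenpe, -7.15 for Depdc1a, -6.29 for Atad2, -6.25 for Fam111a and -7.05 for Itga4. Without both day 2 drug libraries they were smaller, at -5.53 for Cenpe, -5.02 for Cenpf, -4.71 for Depdc1a, -4.78 for Esco2, -4.48 for Fam111a, -5.47 for Kif20b, -5.02 for Itga4 and -4.47 for Atad2, and each still passed the test. The GC-adjusted falls of these genes and Knl1 were also smaller, between -5.51 (Cenpe) and -3.96 (Depdc1a). Leaving out the undifferentiated NC library gave -6.58 for Depdc1a and -6.68 for Itga4.

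By mass of transcripts, the losses fell on a D-type cyclin, matrix and filaments. Ccnd1, cyclin D1, had 114, 117 and 103 CPM at day 2 and 2383, 2414 and 2433 CPM in undifferentiated cells, a log2 change of -4.44 ± 0.084 (adjusted p = 5.08e-10). Tnc, the matrix protein tenascin C, averaged 211 ± 21.2 CPM at day 2 and 1654 ± 31.6 CPM in undifferentiated cells (-2.97 ± 0.12), and Nes, the intermediate filament nestin of neural progenitors, 426 ± 54.6 and 1810.2 ± 77.6 CPM (-2.08 ± 0.12). Both groups were tight for these 3 genes. The splicing factor gene Hnrnpa2b1 averaged 680.2 ± 184 CPM at day 2 and 1945 ± 62.3 CPM in undifferentiated cells (-1.54 ± 0.14, GC-adjusted -0.64).

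The non-coding RNA Xist had 1710, 365 and 511 CPM at day 2 and 2167, 2037 and 2029 CPM in undifferentiated cells (-1.48 ± 0.39, adjusted p = 0.00621). Its fall rested on the naloxone and DAMGO libraries and was not called without them (-0.39), nor when GC-adjusted (-0.12), and it was -2.15 without the day 2 NC library. Among the gains, Apoe, a lipid carrier of astrocytes, had 2681, 3349 and 3227 CPM at day 2 and 88.2, 93.4 and 99.4 CPM in undifferentiated cells (5.04 ± 0.11). Ednrb, the endothelin B receptor, had 3271, 1974 and 2290.3 CPM at day 2 and 284, 284 and 283 CPM in undifferentiated cells (3.12 ± 0.16, GC-adjusted 3.72), with the NC library highest. The imprinted gene Nnat averaged 2275 ± 220.3 CPM at day 2 and 248 ± 12.8 CPM in undifferentiated cells (3.19 ± 0.084). The elongation factor genes Eef1a1 (0.38 ± 0.087) and Eef2 (0.76 ± 0.078) and the desaturase gene Scd2 (0.64 ± 0.068) gained many CPM with small folds, and Eef1a1 was not called without both day 2 drug libraries.

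**Figure D3:**
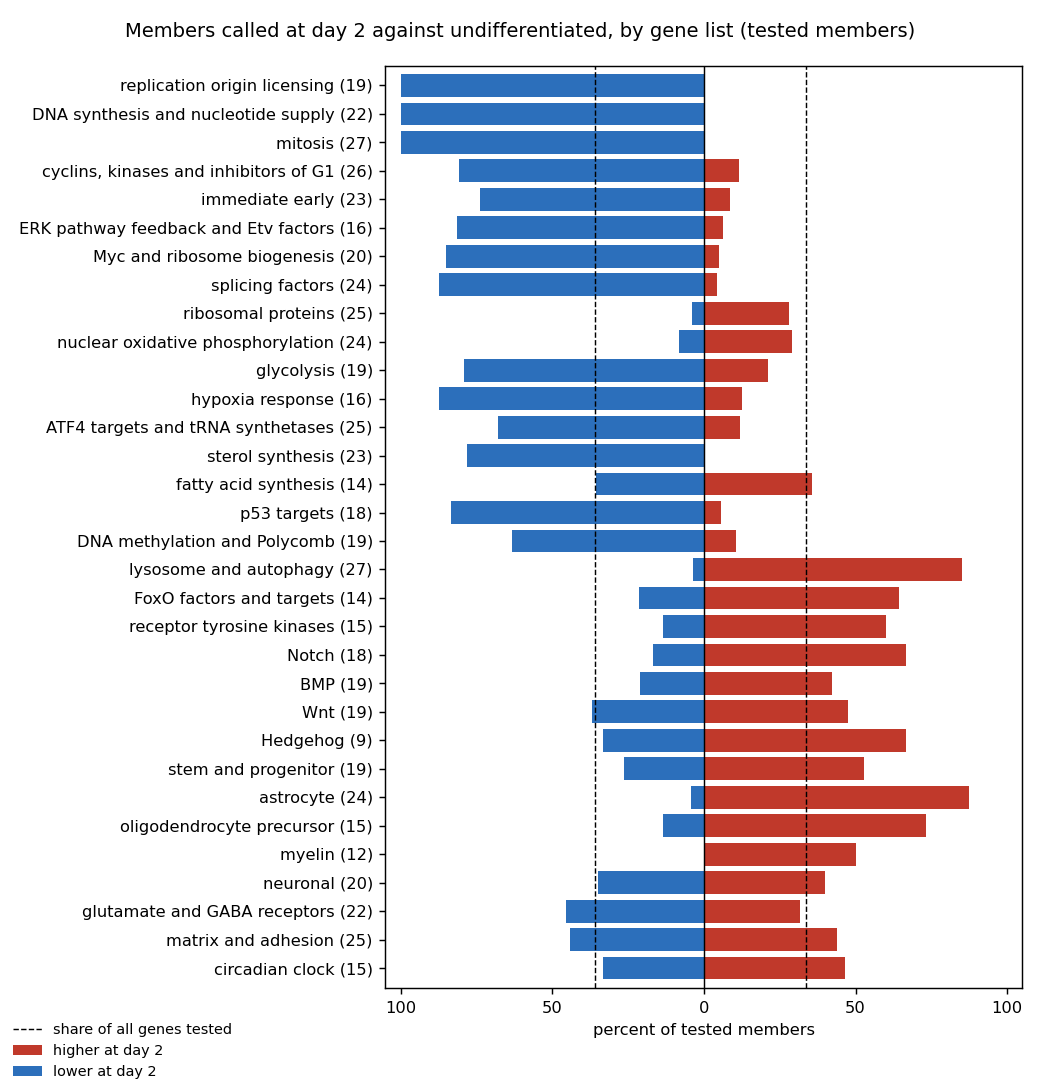
Share of the tested members of 32 gene lists that were called higher (red, to the right) or lower (blue, to the left) at day 2, with the number tested in brackets. Dashed lines mark the shares over all genes tested, 33.7% higher and 35.9% lower. Every tested member of the licensing, DNA synthesis and mitosis lists was lower, and lysosome, astrocyte and oligodendrocyte precursor lists were mostly higher.

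Cell division genes fell as a whole. All 27 tested genes of mitosis were called lower, against 35.9% of all genes tested, with a median log2 change of -3.39. Their summed level was 522, 452 and 427 CPM at day 2 and 6984, 6633 and 6615 CPM in undifferentiated cells. Mki67, the nuclear antigen of dividing cells, had 34.95, 13.8 and 16.9 CPM at day 2 and 1367, 1279 and 1302 CPM in undifferentiated cells, a log2 change of -5.98 ± 0.27 (adjusted p = 3.40e-08). The NC library held the most of the day 2 libraries, and all 3 were far below the undifferentiated ones. In bulk RNA, fewer dividing cells and less of a transcript in each cell cannot be told apart. The log2 change of Mki67 was -5.30 without both day 2 drug libraries.

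All 19 genes of origin licensing and all 22 genes of DNA synthesis and nucleotide supply were lower too, with medians of -3.03 and -2.22. Cdc6, which loads the replicative helicase, averaged 2.71 ± 0.213 CPM at day 2 and 40.8 ± 1.30 CPM in undifferentiated cells (-3.90 ± 0.22). Mcm10 changed by -3.87 ± 0.16 on the log2 scale, the kinase subunit gene Dbf4 by -3.64 ± 0.18 (GC-adjusted -2.86) and the origin binding gene Orc1 by -3.49 ± 0.21. Among synthesis genes, Pola1, the catalytic subunit of DNA polymerase alpha, averaged 5.12 ± 2.62 CPM at day 2 and 106 ± 4.603 CPM in undifferentiated cells (-4.40 ± 0.20, GC-adjusted -3.38, and -3.79 without both day 2 drug libraries). The thymidine kinase gene Tk1 (-3.66 ± 0.20), the polymerase epsilon gene Pole (-3.34 ± 0.12) and the ribonucleotide reductase gene Rrm2 (-3.29 ± 0.13) fell less far. The 68 genes of these 3 lists kept their calls in all 17 alternatives to the processing other than a 2-fold minimum.

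Promoters of mitotic genes are known to carry the cell cycle homology region, TTTGAA, which recruits a repressor complex in cells that stop dividing, together with CCAAT boxes. Of the mitosis list, 23 genes had a promoter in the RefSeq table (GRCm38.p6), and 8 of these (34.8%) held both TTTGAA and CCAAT, on either strand, in the 250 bases before the start. The share was 5.90% of 10054 tested genes with a promoter and 7.34% of all 27025 promoters. CCAAT alone stood in 18 of the 23 (78.3%), against 41.1% of tested genes. Among genes that fell at least 2-fold, 8.50% held both, and among those that rose at least 2-fold 4.68%. The 150 bases before the start of 5 such genes are shown 5′ to 3′ on the strand of the gene because they share this arrangement, with both motifs, or their reverse complements TTCAAA and ATTGG, in capitals. They lie at chr7:135716380-135716529 (minus strand), chr19:37376232-37376381 (plus), chr11:99024190-99024339 (minus), chr10:69352913-69353062 (minus) and chr4:118437344-118437493 (minus). A match describes the letters only and is no measured site.
Mki67: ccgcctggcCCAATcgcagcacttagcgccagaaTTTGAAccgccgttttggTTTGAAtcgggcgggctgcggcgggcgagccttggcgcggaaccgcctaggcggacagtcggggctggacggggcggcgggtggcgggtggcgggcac
Kif11: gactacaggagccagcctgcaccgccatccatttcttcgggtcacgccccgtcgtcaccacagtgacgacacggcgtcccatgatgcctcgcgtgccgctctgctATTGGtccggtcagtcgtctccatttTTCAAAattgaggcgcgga
Top2a: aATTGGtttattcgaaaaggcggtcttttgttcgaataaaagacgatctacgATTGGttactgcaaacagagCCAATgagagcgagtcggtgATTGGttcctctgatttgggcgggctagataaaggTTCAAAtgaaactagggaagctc
Cdk1: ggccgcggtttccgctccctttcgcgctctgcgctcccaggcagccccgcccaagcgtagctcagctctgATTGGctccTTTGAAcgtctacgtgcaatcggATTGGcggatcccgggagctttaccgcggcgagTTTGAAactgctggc
Cdc20: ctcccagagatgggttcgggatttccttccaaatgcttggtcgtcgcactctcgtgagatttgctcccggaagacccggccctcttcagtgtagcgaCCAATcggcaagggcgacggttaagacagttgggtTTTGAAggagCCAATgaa

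Besides Mki67, the genes shown had log2 changes of -4.46 ± 0.28 (Kif11, the kinesin that separates spindle poles), -4.10 ± 0.20 (Top2a, the topoisomerase of chromosome condensation), -3.12 ± 0.12 (Cdk1, the mitotic kinase) and -2.98 ± 0.14 (Cdc20, an activator of the anaphase promoting complex). These 4 were chosen for their promoter letters after values had been seen, and shifts of their values in the alternatives were not examined. In the promoters of Mki67, Top2a, Cdk1 and Cdc20 more than 1 copy of a motif stood within the window.

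Among cyclins, kinases and inhibitors of G1, 21 of 26 tested genes fell and 3 rose. Ccne2, cyclin E2, averaged 3.23 ± 2.29 CPM at day 2 and 65.7 ± 4.11 CPM in undifferentiated cells (-4.39 ± 0.32, -5.01 without the day 2 NC library, -3.59 without both drug libraries of that day and -2.79 GC-adjusted). The repressor gene E2f7 changed by -3.11 ± 0.18 on the log2 scale. The inhibitors of cyclin-dependent kinases did not move together. Cdkn1a, the inhibitor p21, had 21.3, 22.7 and 21.9 CPM at day 2 and 213, 237 and 243 CPM in undifferentiated cells (-3.39 ± 0.083). Cdkn1c, the inhibitor p57, had 17.7, 21.1 and 18.3 CPM at day 2 and 4.67, 3.99 and 3.70 CPM in undifferentiated cells (2.21 ± 0.16, adjusted p = 1.02e-06). The pocket protein gene Rbl2 rose by 0.45 ± 0.10. Cdkn1b, the inhibitor p27, had 179, 132 and 169 CPM at day 2 and 183, 188 and 178 CPM in undifferentiated cells, with overlapping groups, and was not called (-0.20 ± 0.10, adjusted p = 0.117). Its small change was called without the day 2 NC library (-0.24) and had the opposite sign when GC-adjusted (0.38).

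Transcripts that follow growth factor signalling fell. Of 23 tested immediate early genes, which are induced within minutes of a stimulus, 17 fell and 2 rose (median -1.92). Egr1, a zinc finger factor of this class, had 25.4, 32.6 and 19.2 CPM at day 2 and 369.5, 419 and 383 CPM in undifferentiated cells (-3.94 ± 0.14, adjusted p = 7.36e-09), and no day 2 library came within reach of an undifferentiated one. Egr3 changed by -4.81 ± 0.42 on the log2 scale (-5.85 without both day 2 drug libraries) and Fos by -1.60 ± 0.11. Btg2, an antiproliferative gene that is also a target of p53, went the other way, with 277, 242 and 308 CPM at day 2 and 57.7, 52.1 and 66.6 CPM in undifferentiated cells (2.23 ± 0.10).

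Feedback and output genes of the ERK pathway fell in 13 of 16 cases and rose in 1. Dusp6, a phosphatase of ERK, had 49.3, 65.2 and 37.7 CPM at day 2 and 318, 325 and 297 CPM in undifferentiated cells (-2.64 ± 0.18). Spry4, an inhibitor of receptor signalling, averaged 33.5 ± 6.397 CPM at day 2 and 272 ± 7.24 CPM in undifferentiated cells (-3.02 ± 0.12), and the phosphatase gene Dusp4 changed by -2.38 ± 0.14. The ligand gene Areg had 0 counts at day 2 and 50 counts in undifferentiated cells, at least 20.8-fold lower (floor of 3 counts over the 3 libraries). The transcription factor genes of the pathway fell less, with log2 changes of -1.42 ± 0.085 for Etv5 and -0.83 ± 0.18 for Etv4. Il17rd, an inhibitor of FGF signalling, rose by 1.89 ± 0.12 to 129 ± 3.37 CPM, against 34.9 ± 5.05 CPM in undifferentiated cells.

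Receptors stood higher at the same time. Of 15 tested receptor tyrosine kinases 9 rose and 2 fell, against 33.7% and 35.9% of all genes tested, with a median of 1.22. Pdgfra, the receptor for platelet-derived growth factor on oligodendrocyte precursors, had 342, 309 and 317 CPM at day 2 and 26.02, 21.7 and 26.6 CPM in undifferentiated cells (3.71 ± 0.078, adjusted p = 5.28e-10). Kit, the receptor for stem cell factor, had 115, 98.3 and 116 CPM at day 2 and 12.2, 12.8 and 11.1 CPM in undifferentiated cells (3.18 ± 0.11). Neither gene overlapped between the groups. Fgfr2 averaged 57.7 ± 2.91 CPM at day 2 and 6.51 ± 0.549 CPM in undifferentiated cells (3.14 ± 0.093), and Pdgfrb rose by 3.49 ± 0.41 at a low level (4.32 without the undifferentiated naloxone library). Igf1r changed by -0.62 ± 0.11. Egfr, the receptor for the mitogen EGF, had 759, 440.3 and 487 CPM at day 2 and 635, 614 and 606 CPM in undifferentiated cells. These groups overlapped, with the NC library above and the naloxone library below the undifferentiated range, and the gene was not called (-0.16 ± 0.14, adjusted p = 0.307). Without the day 2 NC library Egfr was called lower (-0.35) and 4 rather than 2 receptors of the list fell, whereas Egfr stood at 0.27 without both drug libraries of that day and at 0.33 when GC-adjusted.

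FoxO factors are held inactive by insulin and growth factor signalling. Of 14 tested FoxO genes and targets 9 rose and 3 fell, against 33.7% and 35.9% of all genes tested. Txnip, an inhibitor of thioredoxin and of glucose uptake, had 137, 120.4 and 157 CPM at day 2 and 15.04, 15.97 and 16.04 CPM in undifferentiated cells (3.14 ± 0.15). Pik3ip1, an inhibitor of PI3 kinase, rose by 2.59 ± 0.083, the Krüppel-like factor gene Klf15 by 2.05 ± 0.13 and the stress gene Sesn3 by 1.94 ± 0.14. Klf9 changed by -1.59 ± 0.21. The low-abundance gene Foxo6 changed by -1.91 ± 0.50 (-2.73 without both day 2 drug libraries), and its libraries overlapped between the groups.

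**Figure D4:**
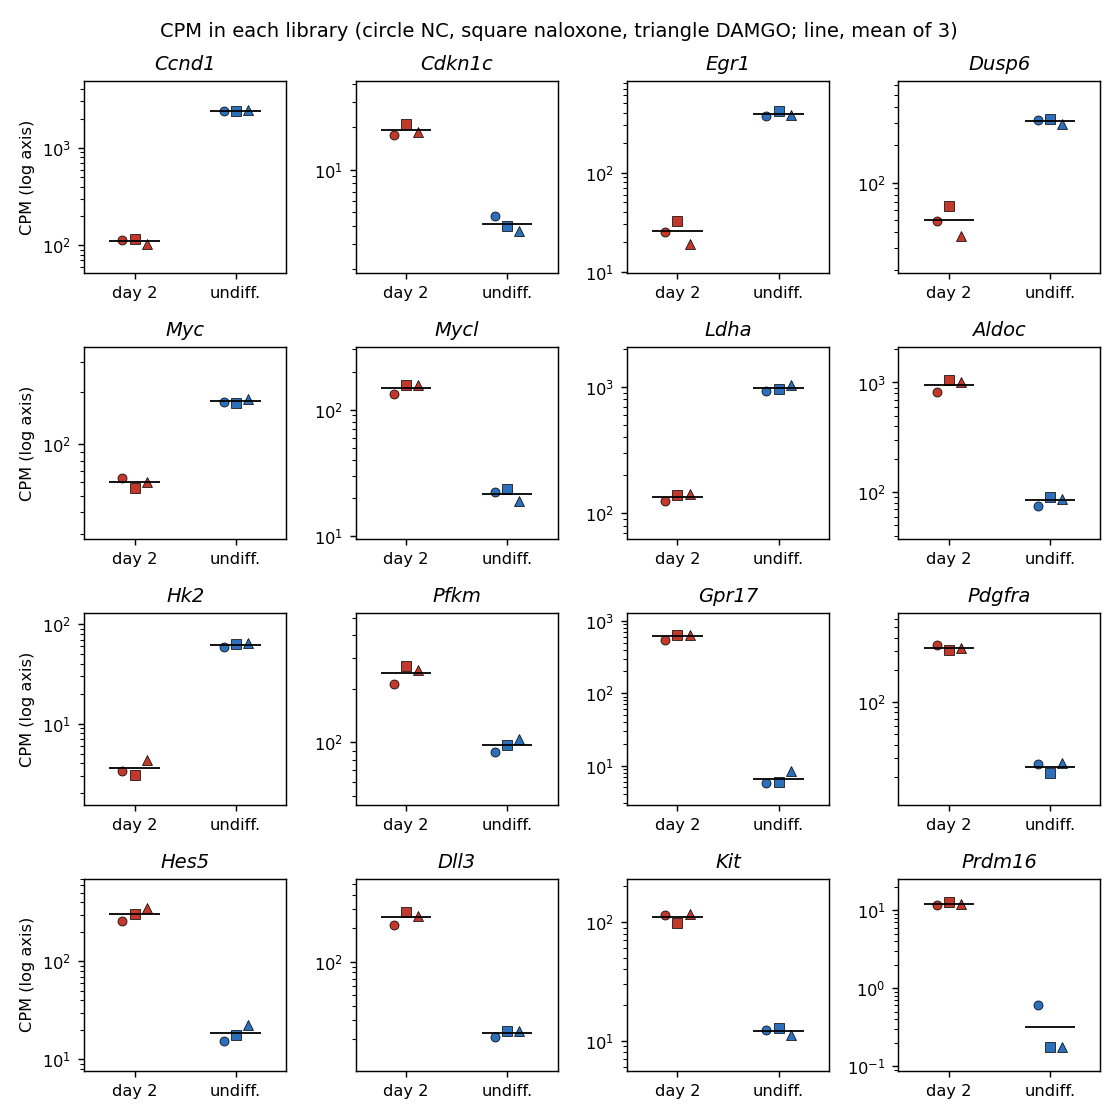
CPM (log axes) of 16 genes in each library, day 2 on the left in red and undifferentiated cells on the right in blue. Circles are NC, squares naloxone and triangles DAMGO, and the line is the mean of 3. The 16 genes were picked from genes with a call. For each of them the day 2 libraries lie wholly above or wholly below the undifferentiated ones, as for Ccnd1 (lower) and Gpr17 (higher). Of all genes tested, 35.8% were without overlap and higher at day 2, and 36.5% were without overlap and lower.

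Members of the Myc family moved in opposite directions. Myc had 63.5, 55.7 and 59.9 CPM at day 2 and 176, 173 and 184 CPM in undifferentiated cells (-1.57 ± 0.074, adjusted p = 4.29e-08). Mycl had 132, 156 and 157 CPM at day 2 and 22.4, 23.4 and 18.9 CPM in undifferentiated cells (2.78 ± 0.10, adjusted p = 9.92e-09), and neither gene overlapped between groups. Of 20 tested Myc and ribosome biogenesis genes 17 fell, with Mycl the 1 that rose. The nucleolar genes Nop58 (-2.88 ± 0.29), Dkc1 (-2.77 ± 0.25), Gnl3 (-2.65 ± 0.16) and Ncl (-2.36 ± 0.27) fell furthest. Ncl, the nucleolar protein nucleolin, had 378, 138 and 169.6 CPM at day 2 and 1136, 1075 and 1086 CPM in undifferentiated cells, with the NC library highest of day 2. Its change was -1.63 without both day 2 drug libraries, against -2.06 for Nop58 and -2.10 for Dkc1, and the GC-adjusted changes were -1.75 for Ncl, -2.01 for Nop58 and -1.97 for Gnl3.

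Few genes of the ribosomal proteins themselves passed the test. Of 25 tested, 7 were called higher and 1 lower, with a median of 0.12, both shares below the 33.7% and 35.9% of all genes. The direction of these calls was not stable, with 4 higher and 14 lower after removal of a GC and length trend across libraries and 18 higher without the day 2 NC library, and 2 higher and 4 lower without both day 2 drug libraries. Splicing factor genes fell in 21 of 24 cases (median -0.97, and -0.47 after removal of that trend). Srsf10 changed by -1.77 ± 0.19 on the log2 scale, Hnrnpu by -1.50 ± 0.16 and Hnrnph1 by -1.37 ± 0.20, while Hnrnpc rose by 0.45 ± 0.062. GC-adjusted, 6 splicing genes rose and 15 fell, and the changes were -0.98 for Srsf10, -0.51 for Hnrnpu, -0.35 for Hnrnph1 and 1.22 for Hnrnpc. Srsf10 changed by -1.18 without both day 2 drug libraries.

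Most glycolysis genes fell, and related enzyme forms moved apart. Of 19 tested, 15 fell and 4 rose, against 35.9% and 33.7% of all genes, with a median of -1.13. Hk2, the hexokinase of rapidly growing cells, had 3.34, 3.03 and 4.31 CPM at day 2 and 58.5, 63.2 and 65.2 CPM in undifferentiated cells (-4.14 ± 0.13). Ldha, the lactate dehydrogenase subunit that favours lactate production, had 125, 139 and 142 CPM at day 2 and 934, 959 and 1041 CPM in undifferentiated cells (-2.85 ± 0.10), whereas the other subunit gene, Ldhb, had 394, 489 and 489 CPM at day 2 and 144, 138 and 136 CPM in undifferentiated cells (1.71 ± 0.086). All 3 genes were without overlap.

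The same split appeared in other enzymes. Pfkp, the platelet type of phosphofructokinase, changed by -2.74 ± 0.11 on the log2 scale and Pfkm, the muscle type, rose by 1.34 ± 0.10. Aldoc, the aldolase of astrocytes, averaged 959 ± 129.6 CPM at day 2 and 84.9 ± 8.74 CPM in undifferentiated cells (3.49 ± 0.10). Per length, Ldha averaged 178 TPM and Ldhb 751 TPM at day 2, against 1322 TPM for Ldha and 236 TPM for Ldhb in undifferentiated cells, so that the order of the subunits was the opposite at day 2. The lactate exporter gene Slc16a3 changed by -4.27 ± 0.32. Of 24 nuclear-encoded respiratory chain genes 7 rose and 2 fell (median 0.083), both below the background, and 14 rose without the day 2 NC library, 4 without the day 2 naloxone library and 3 without both drug libraries. GC-adjusted, 7 rose and 7 fell.

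Genes of the hypoxia response, which the factor Hif1a induces when oxygen is low, fell in 14 of 16 cases (median -1.41). Vegfa, the vascular growth factor, had 20.01, 14.5 and 14.0 CPM at day 2 and 126, 135 and 167 CPM in undifferentiated cells (-3.14 ± 0.15). Ankrd37 changed by -3.28 ± 0.39 (-4.02 without both day 2 drug libraries), and for the collagen hydroxylase gene P4ha2 the ratio of undifferentiated cells to day 2 was 47.97 (95% counting interval 12.8 to 403). Epas1, which encodes the related factor Hif2a, had 35.5, 36.4 and 32.3 CPM at day 2 and 5.28, 6.25 and 9.34 CPM in undifferentiated cells (2.32 ± 0.15), and Mxi1, an antagonist of Myc, rose by 1.28 ± 0.087. The core of the hypoxia element, ACGTG on either strand, stood in 10 of 15 promoters of this list (66.7%) and 9 of 18 of the glycolysis list (50%), against 25.3% of tested genes and 18.5% of all promoters. It stood in 25.8% of promoters of genes that fell at least 2-fold and 21.8% of those that rose. The 150 bases before the start of P4ha2, at chr11:54100774-54100923 (plus strand), and of Slc16a3, at chr11:120948917-120949066 (plus strand), show it in capitals. Both genes had deep falls, and both were chosen for these letters after values had been seen.
P4ha2: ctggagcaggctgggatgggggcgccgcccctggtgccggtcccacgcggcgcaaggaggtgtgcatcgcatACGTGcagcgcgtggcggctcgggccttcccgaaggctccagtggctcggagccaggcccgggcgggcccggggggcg
Slc16a3: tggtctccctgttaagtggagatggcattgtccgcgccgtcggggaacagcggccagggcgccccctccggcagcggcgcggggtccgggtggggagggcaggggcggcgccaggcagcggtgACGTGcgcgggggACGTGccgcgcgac

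Genes of amino acid supply under the factor ATF4 and of tRNA charging fell in 17 of 25 cases and rose in 3 (median -0.88). Mthfd2, a mitochondrial enzyme of folate metabolism, had 4.21, 4.17 and 3.05 CPM at day 2 and 78.2, 71.9 and 72.6 CPM in undifferentiated cells (-4.26 ± 0.21). The arginine transporter gene Slc7a3 changed by -3.90 ± 0.39, the glutathione-degrading gene Chac1 by -3.64 ± 0.31, and for the pseudokinase gene Trib3 the ratio of undifferentiated cells to day 2 was 37.4 (95% counting interval 12.4 to 185). Psph, the last enzyme of serine synthesis, rose by 0.85 ± 0.11.

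Sterol synthesis fell, and fatty acid genes were called in both directions at close to the shares over all genes. Of 23 tested sterol genes, which the factor SREBP2 controls together, 18 fell and the other 5 did not pass the test (median -1.04). Idi1, an isomerase of the mevalonate pathway, had 123, 92.3 and 89.9 CPM at day 2 and 533, 522 and 521 CPM in undifferentiated cells (-2.38 ± 0.16, GC-adjusted -1.28). The sterol carrier gene Stard4 changed by -1.88 ± 0.12 on the log2 scale and the synthase gene Fdps by -1.49 ± 0.15. Of 14 fatty acid genes 5 rose and 5 fell, against 33.7% and 35.9% of all genes tested, and 3 fell without the day 2 NC library. The list's median was -0.13, and -0.18 without both day 2 drug libraries. The desaturase genes Fads2 (1.22 ± 0.076) and Fads1 (0.90 ± 0.067) rose, and the elongase gene Elovl6 fell (-2.42 ± 0.25, and -1.73 without both day 2 drug libraries). CCAAT stood in all 16 sterol promoters that had an entry, against 41.1% of tested genes, and TCACNCCAC, the sterol element, in 1 (6.25%, against 1.21% of tested genes). That 1 is Hmgcs1, a synthase of the mevalonate pathway that changed by -1.04 ± 0.17, at chr13:119690201-119690350 (plus strand), shown with both motifs in capitals (TCACCCCAC and ATTGG, the reverse complement of CCAAT). It was chosen for these letters after values had been seen.
Hmgcs1: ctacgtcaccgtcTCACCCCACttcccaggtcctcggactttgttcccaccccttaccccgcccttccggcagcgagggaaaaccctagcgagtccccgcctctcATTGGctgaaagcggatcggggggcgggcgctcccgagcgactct

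Lysosome and autophagy genes rose together. Of 27 tested genes 23 rose and 1 fell, against 33.7% and 35.9% of all genes, with a median of 0.84. Their summed level was 5899, 6423 and 6344 CPM at day 2 and 3125, 3172 and 3139 CPM in undifferentiated cells. Wipi1, a protein of the forming autophagosome, had 70.5, 72.8 and 71.4 CPM at day 2 and 11.8, 16.8 and 16.7 CPM in undifferentiated cells (2.24 ± 0.12, adjusted p = 8.06e-08). Map1lc3b, the membrane anchor of autophagosomes, rose by 1.62 ± 0.083, the cholesterol exporter gene Npc1 by 1.56 ± 0.077 and the progranulin gene Grn by 1.40 ± 0.09. The list kept 21 rises without both day 2 drug libraries and 22 after removal of the GC and length trend.

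The factor TFEB is known to bind an extended E-box, TCACGTG, before lysosomal genes. It stood, on either strand, in 4 of 21 promoters of the list (19.0%), against 5.81% of tested genes and 3.58% of all promoters. Among genes that rose at least 2-fold it stood in 4.82%. The 150 bases before the start of Lamp1, the major lysosomal membrane protein, at chr8:13159011-13159160 (plus strand), hold 4 copies. Those of Ctsd, the protease cathepsin D, at chr7:142387828-142387977 (minus strand), hold a palindrome that matches on both strands. Lamp1 rose by 1.14 ± 0.065 and Ctsd by 0.79 ± 0.066, and both were chosen for these letters after values had been seen.
Lamp1: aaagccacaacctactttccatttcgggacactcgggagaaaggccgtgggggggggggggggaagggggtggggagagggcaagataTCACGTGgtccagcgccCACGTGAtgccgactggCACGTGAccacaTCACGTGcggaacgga
Ctsd: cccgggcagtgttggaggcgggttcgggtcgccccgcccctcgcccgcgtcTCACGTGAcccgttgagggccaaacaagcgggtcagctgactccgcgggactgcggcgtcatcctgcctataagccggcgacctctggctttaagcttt

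**Figure D5:**
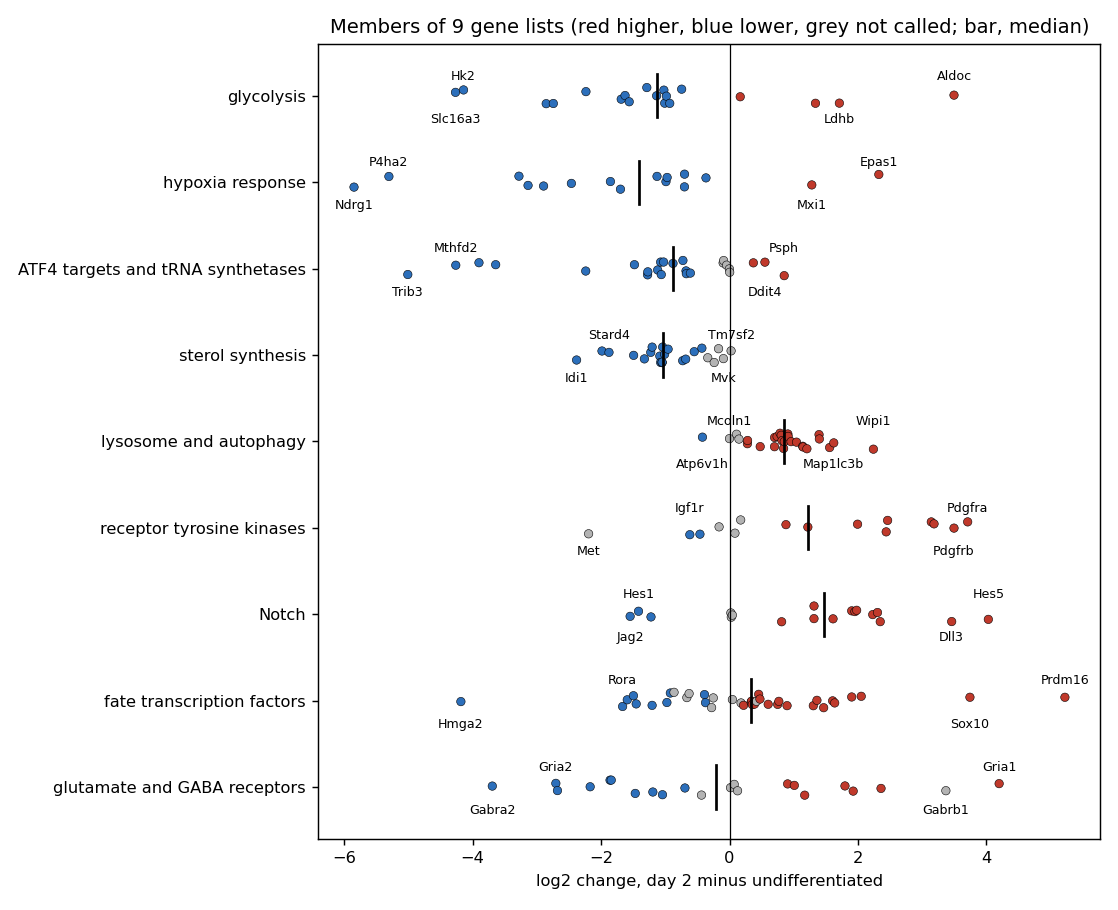
Fitted log2 change at day 2 against undifferentiated cells for each tested member of 9 gene lists (red higher, blue lower, grey not called), with the list's median as a bar and members towards both ends named. Glycolysis, hypoxia, ATF4 and sterol members lie mostly to the left of 0, and lysosome, Notch and receptor members mostly to the right.

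Most p53 targets, and genes of the maintenance methylation machinery, also fell. Of 18 tested p53 targets 15 fell and 1 rose (median -1.18). Plk2, a stress-induced kinase, averaged 58.4 ± 6.54 CPM at day 2 and 334 ± 20.3 CPM in undifferentiated cells (-2.52 ± 0.12), and the receptor gene Eda2r 39.7 ± 13.6 and 172 ± 13.1 CPM (-2.15 ± 0.16, GC-adjusted -1.29). Of 19 genes of DNA methylation and Polycomb complexes 12 fell and 2 rose. Uhrf1, which brings the maintenance methyltransferase to replicated DNA, had 19.4, 29.1 and 29.3 CPM at day 2 and 259, 277 and 269 CPM in undifferentiated cells (-3.38 ± 0.12). The chromatin remodeller gene Hells changed by -5.38 ± 0.36 (-6.43 without the day 2 NC library, -4.28 without both drug libraries of that day, -4.14 GC-adjusted), the methyltransferase gene Dnmt1 by -1.92 ± 0.07 and the Polycomb gene Suz12 by -2.61 ± 0.33 (-3.21, -1.64 and -1.44 in the same alternatives). Ezh1, the histone methyltransferase of non-dividing cells, rose by 1.53 ± 0.12. Without both day 2 drug libraries 9 of these genes fell and the median was -0.28, against -0.85 with all libraries. GC-adjusted, 8 fell and 4 rose, with a median of -0.23.

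Progenitor genes moved apart. Of 19 tested genes of neural stem and progenitor cells 10 rose and 5 fell, against 33.7% and 35.9% of all genes tested. Hmga2, a chromatin protein of young progenitors, had 1.31, 1.26 and 1.97 CPM at day 2 and 28.3, 26.4 and 27.1 CPM in undifferentiated cells (-4.18 ± 0.31, GC-adjusted -3.59). Sox3, a factor of neural progenitors, had 175, 208 and 207 CPM at day 2 and 34.3, 38.4 and 47.2 CPM in undifferentiated cells (2.30 ± 0.11). The RNA-binding gene Msi1 rose by 1.81 ± 0.076, Lhx2 by 1.64 ± 0.08, Sox1 by 1.43 ± 0.10 and Sox2 by 0.71 ± 0.064. Nes and Vim (-0.60 ± 0.055), the filaments of progenitors, fell, as did the factor gene Hes1, which is described with the Notch genes.

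Astrocyte genes rose in 21 of 24 tested cases and fell in 1, with a median of 2.30. The 1 that fell was Nfib, with a log2 change of -1.21 ± 0.29 (GC-adjusted -0.60). Most of its fall rested on the day 2 naloxone and DAMGO libraries, without which the change was -0.33. The summed level of the list was 15672, 17184 and 16374 CPM at day 2 and 3583, 3683 and 3751 CPM in undifferentiated cells. S1pr1, a sphingosine 1-phosphate receptor of astrocytes, had 184, 232 and 210.3 CPM at day 2 and 5.89, 6.94 and 7.05 CPM in undifferentiated cells (4.97 ± 0.14). Aqp4, the astrocyte water channel, had 92.4, 34.2 and 42.5 CPM at day 2 and 3.25, 2.95 and 2.11 CPM in undifferentiated cells (4.27 ± 0.39, and 4.91 without both day 2 drug libraries). The classical filament marker Gfap was still low, at 8.85, 6.698 and 8.26 CPM at day 2 and 4.06, 0.694 and 2.29 CPM in undifferentiated cells (1.79 ± 0.35, and 2.43 without the undifferentiated NC library), and S100b rose by 3.01 ± 0.33 to 15.8 ± 1.21 CPM (4.04 without the undifferentiated naloxone library).

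Oligodendrocyte precursor genes rose in 11 of 15 tested cases and fell in 2 (median 1.49). Sox10, a factor of the lineage, had 25.1, 31.3 and 30.3 CPM at day 2 and 2.24, 2.08 and 2.11 CPM in undifferentiated cells (3.74 ± 0.16). The complement-like gene C1ql1 rose by 4.27 ± 0.31 (4.94 without the undifferentiated DAMGO library) and the proteoglycan gene Cspg4 changed by -0.76 ± 0.10. Olig2, the lineage factor, was already abundant, at 862, 1011 and 944 CPM at day 2 and 799, 806 and 812 CPM in undifferentiated cells, and its small rise (0.22 ± 0.072, adjusted p = 0.0197) was not called without the day 2 naloxone library, the day 2 DAMGO library, both of these (0.10) or the undifferentiated naloxone library, and its value was -0.19 when GC-adjusted. Of 12 tested myelin genes 6 passed the test, all upward, and 6 were not called, where 33.7% of all genes tested rose. Cnp, an enzyme of myelinating cells, averaged 575 ± 42.4 CPM at day 2 and 83.95 ± 2.84 CPM in undifferentiated cells (2.77 ± 0.074), and the sulfatide synthesis gene Gal3st1 rose by 4.003 ± 0.26.

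Neuronal genes split, with 8 of 20 higher and 7 lower, close to the shares over all genes. Neurog2, a proneural factor, had 20.2, 18.3 and 16.7 CPM at day 2 and 1.42, 1.04 and 0.529 CPM in undifferentiated cells (4.20 ± 0.23). Tubb3, the tubulin of young neurons, had 84.99, 117 and 109 CPM at day 2 and 17.3, 17.7 and 17.1 CPM in undifferentiated cells (2.57 ± 0.12). The interneuron factor genes Dlx2 (2.97 ± 0.34) and Dlx1 (2.18 ± 0.26) and the migration gene Dcx (1.96 ± 0.27, and 2.58 without both day 2 drug libraries) rose. The synaptic gene Snap25 (-2.42 ± 0.34), the RNA-binding gene Elavl4 (-1.77 ± 0.29, and -0.90 without both day 2 drug libraries) and Sox11 (-1.45 ± 0.18) fell. Without both day 2 drug libraries 4 rather than 7 of the list fell and the median was 0.36, against -0.24 with all libraries. The GC-adjusted changes were -0.32 for Elavl4, -1.50 for Snap25 and 3.20 for Dcx.

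Subunits of neurotransmitter receptors moved in both directions. Of 22 tested glutamate and GABA receptor genes 7 rose and 10 fell (median -0.21), against 33.7% and 35.9% of all genes tested. This balance was not stable, with 9 higher and 8 lower and a median of 0.45 when GC-adjusted, 8 higher and 8 lower without both day 2 drug libraries, and a median of -0.82 without the day 2 NC library. Gria2, the AMPA receptor subunit that blocks calcium entry, had 249, 74.6 and 82.6 CPM at day 2 and 826, 783 and 775 CPM in undifferentiated cells (-2.70 ± 0.39), and Gria3 changed by -2.68 ± 0.30. Gria1 rose by 4.20 ± 0.24 to 26.3 ± 4.02 CPM, against 1.45 ± 0.857 CPM in undifferentiated cells (4.79 without the undifferentiated NC library). The GABA-A subunit gene Gabra2 averaged 3.51 ± 1.02 CPM at day 2 and 44.97 ± 2.87 CPM in undifferentiated cells (-3.69 ± 0.21). Both subunits of the GABA-B receptor rose, Gabbr1 by 1.93 ± 0.063 and Gabbr2 by 2.36 ± 0.13. Gria2 changed by -1.77 and Gria3 by -1.93 without both day 2 drug libraries, and the GC-adjusted changes were -1.58 for Gria2, -1.81 for Gria3 and -2.24 for Gabra2.

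Among 38 tested fate transcription factors 20 rose and 10 fell, against 33.7% and 35.9% of all genes tested. Their median change was 0.34, and 0.27 without both day 2 drug libraries. Prdm16, a regulator of neural stem cell and ependymal fate, had 11.7, 12.8 and 12.02 CPM at day 2 and 0.6097, 0.174 and 0.176 CPM in undifferentiated cells (5.22 ± 0.26, and 5.97 without the undifferentiated NC library). Sox8 rose by 1.90 ± 0.087 on the log2 scale. Tcf4, an E protein, changed by -1.50 ± 0.29 and the nuclear receptor gene Rora by -1.66 ± 0.36 (-2.43 without the day 2 NC library). Without the drug libraries of day 2 they changed less, Tcf4 by -0.69 and Rora by -0.60 (GC-adjusted -0.94).

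The Notch pathway, in which Delta ligands on one cell activate receptors on its neighbour, was higher at several levels. Of 18 tested genes 12 rose and 3 fell (median 1.46). Among ligands, Dll3 had 214, 280 and 259.9 CPM at day 2 and 20.7, 23.95 and 23.6 CPM in undifferentiated cells (3.46 ± 0.10), while Jag1 changed by -1.22 ± 0.13 and Jag2 by -1.55 ± 0.30. Dll3 and the Jagged ligands thus had opposite signs. The receptor gene Notch3 averaged 216 ± 10.7 CPM at day 2 and 42.5 ± 2.78 CPM in undifferentiated cells (2.35 ± 0.071), and Mfng, which modifies Notch receptors, rose by 2.30 ± 0.17. The target genes split as well. Hes5 had 258, 305 and 351 CPM at day 2 and 15.2, 17.9 and 22.6 CPM in undifferentiated cells (4.03 ± 0.17, adjusted p = 2.20e-08), and Hes1 had 10.9, 15.7 and 12.6 CPM at day 2 and 34.96, 34.5 and 35.4 CPM in undifferentiated cells (-1.42 ± 0.16, adjusted p = 2.63e-05). Neither gene overlapped between the groups.

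Of 19 tested genes of BMP signalling, which favours astrocyte fate, 8 rose and 4 fell, against 33.7% and 35.9% of all genes tested. Id4, which blocks DNA binding by proneural factors, had 53.8, 37.2 and 44.7 CPM at day 2 and 1.22, 1.74 and 2.29 CPM in undifferentiated cells (4.65 ± 0.18). Id1 rose by 1.46 ± 0.12, and Id3, with 91.2, 102 and 106 CPM at day 2 and 79.9, 85.1 and 89.3 CPM in undifferentiated cells, was not called (0.24 ± 0.11, adjusted p = 0.0777). The antagonist gene Nog rose by 2.56 ± 0.35, the antagonist gene Chrdl1 changed by -2.50 ± 0.22 and the ligand gene Bmp7 by -1.11 ± 0.08. The inhibitory Smad6 had 0 counts in undifferentiated cells and was at least 5.35-fold higher at day 2. The balance of the list was not stable. GC-adjusted, 11 rose and 3 fell with a median of 0.58, against 0.24 in the main analysis. The median was -0.015 without the day 2 NC library. GC-adjusted changes were 5.41 for Id4, -0.19 for Id3 and -1.74 for Chrdl1. Id3 was called higher without the day 2 NC library (0.33), and Chrdl1 changed by -1.81 without both drug libraries of that day.

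Wnt genes moved both ways, 9 of 19 higher and 7 lower, against 33.7% and 35.9% of all genes tested. This balance was not stable. The median change was 0.34 without both day 2 drug libraries, against 0.019 with all libraries. Without the day 2 NC library 9 rose and 9 fell, with a median of -0.10. Rnf43, a ubiquitin ligase that removes Wnt receptors, averaged 17.8 ± 1.53 CPM at day 2 and 0.593 ± 0.3501 CPM in undifferentiated cells (4.82 ± 0.28). The ligand gene Wnt7b rose by 1.997 ± 0.086 and the receptor gene Fzd2 by 2.09 ± 0.11, while Fzd1 changed by -1.64 ± 0.081 and the stem cell receptor gene Lgr5 by -1.64 ± 0.17. Of 9 tested Hedgehog genes 6 rose and 3 fell, set against the same shares of all genes. Ptch1, the receptor that is also a target of the pathway, had 507, 467 and 491 CPM at day 2 and 146, 144 and 146 CPM in undifferentiated cells (1.75 ± 0.065), and the co-receptor gene Boc rose by 2.22 ± 0.14 while Cdon, another co-receptor, changed by -1.59 ± 0.093.

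Matrix and adhesion genes were evenly divided, 11 higher and 11 lower of 25, against 33.7% and 35.9% of all genes tested. Timp3, an inhibitor of matrix proteases, averaged 377 ± 28.2 CPM at day 2 and 28.8 ± 4.83 CPM in undifferentiated cells (3.71 ± 0.11). Integrin subunits diverged, with Itgb5 higher by 2.998 ± 0.11, Itga7 by 2.93 ± 0.12 and Itga4 lower, and laminin chains did so too, with Lamb2 higher by 2.61 ± 0.12 and Lama4 changed by -2.02 ± 0.22. Of 19 filament, lamin and tubulin genes 12 fell and 4 rose, set against the same shares, and 7 rose without the day 2 NC library. Tubb6 changed by -3.26 ± 0.14, Tuba1b by -2.12 ± 0.11 and Tubb4b by -1.78 ± 0.08, while Tubb4a rose by 1.99 ± 0.14. Tubulin genes are close copies, and RSEM divides shared reads among them.

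Of 15 clock genes 7 rose and 5 fell, against 33.7% and 35.9% of all genes tested. The repressor gene Cry2 rose by 1.58 ± 0.086 and the output gene Dbp by 1.55 ± 0.13, while Clock changed by -2.14 ± 0.37 (-2.83 without the day 2 NC library, -1.13 without both drug libraries of that day, -0.94 GC-adjusted), and 3 of the list fell without these drug libraries or without the undifferentiated naloxone library. Interferon and MHC class I genes passed the test in fewer cases, with 3 higher, 4 lower and 9 not called of 16, and their summed level was 195, 193 and 200.1 CPM at day 2 and 207, 208 and 211 CPM in undifferentiated cells.

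The receptors that the drugs act on were hardly detected. Oprm1, the mu opioid receptor, and Oprk1, the kappa receptor, had 0 counts in all 6 libraries, which allows up to 0.147 CPM over the day 2 libraries and 0.183 CPM over the undifferentiated ones (3 counts over a group, counting error only). Oprd1, the delta receptor, had 0 counts at day 2 and 1 in undifferentiated cells. Oprl1, the nociceptin receptor, which naloxone and DAMGO bind poorly, had 17.4, 20.5 and 19.2 CPM at day 2 and 2.03, 1.74 and 1.76 CPM in undifferentiated cells (3.36 ± 0.18, adjusted p = 1.21e-07), with all day 2 libraries above all undifferentiated ones. The opioid growth factor receptor gene Ogfr rose by 0.97 ± 0.079.

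The change at day 2 differed between the drug cultures and NC for 1009 of 13144 genes (7.68%) by edgeR's quasi-likelihood test of that difference, 19 with a higher and 990 with a lower change in drug cultures. The count depended on single libraries, with 0 genes called without the day 2 naloxone library or without the undifferentiated naloxone library, where 1991 and 2003 genes had an unadjusted p under 0.05. At each stage the test sets 2 libraries of unlike drugs against 1 NC library, and its spread comes from differences between the drugs and from the day 4 and day 8 libraries. The log2 ratios of CPM + 0.5 in naloxone, DAMGO and NC were -6.59, -6.32 and -4.82 for Itga4, -6.49, -6.23 and -5.27 for Mki67 and -6.35, -6.03 and -4.51 for Depdc1a. The fitted differences between drugs and NC, on edgeR's scale without that pseudocount, were -2.13 for Itga4 (adjusted p = 0.0152), -1.13 for Mki67 (adjusted p = 0.0402) and -2.51 for Depdc1a (adjusted p = 0.0219). They cannot be worked out from the ratios, which the pseudocount brings nearer to 0 at these low levels. All 3 genes fell in every treatment. Removal of a GC and length trend within stages left 389 genes, 189 with a higher and 200 with a lower change in drug cultures, so the split between directions was no longer one-sided. With 1 library per condition, a drug effect at day 2 and a property of these libraries cannot be told apart.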

How the data were processed

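Libraries were made with a TruSeq kit from total RNA extracted with Trizol, per the labels' protocols. Per the submitters' processing notes, reads were handled with Bowtie and RSEM against mm10, with versions that were not given in the sources used here. Per the file headers, the deposited tables list 29713 genes with RSEM's expected count, the TPM and the FPKM of each. From 10.4 to 13.1% of the authors' expected counts per library were not whole, and all were rounded here. The FPKM were not used. RSEM divides reads shared by related genes among them. Of the identifiers 29202 had a symbol and GC content in GENCODE of the same build.

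Differences were tested with edgeR 4.0.16 (glmQLFit and glmQLFTest, TMM, filterByExpr, R 4.3.3) in a model with terms for stage and treatment, fitted to 12 libraries (day 4 and day 8 included), with 6 residual degrees of freedom. Treatment was a block, as the comparison is made within treatments. Drug effects that vary with stage add to the residual spread. Each SE was derived from the test, as the size of the fitted log2 change divided by the square root of its F statistic. Adjusted p-values are Benjamini-Hochberg over 13144 genes, with a threshold of 0.05. Whether the day 2 change differed between drugs and NC was tested in a model with drug terms at each of the 2 stages and 4 residual degrees of freedom. Deviations of libraries that share a treatment correlated by 0.112 (NC), 0.019 (naloxone) and 0.088 (DAMGO) between the stages, so the treatment name is all they were taken to share.

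The named genes are the 12 largest rises and 12 largest falls among genes that averaged 5 CPM or more and moved 1 way in every treatment, the 6 largest gains and losses in CPM, up to 4 called members per list and direction, and genes always given. A few genes that the rule selects are not reported here. Predicted gene names were counted (599 among called genes) and not named. The members, the lists and the motifs were chosen with earlier results of these data known. Of the 255 genes the rule names, 252 passed the threshold, 207 of them with an adjusted p under 0.001, and the highest was 0.0467. Where a group had no count, the fold is a bound against 3 counts over that group, and for 1 to 3 counts a ratio with a 95% counting interval is given. Both cover counting error only.

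Alternatives were DESeq2 1.42.0 (size factors and test), limma 3.58.1 on log2 of the deposited TPM + 1 or + 0.1, limma-voom, no filter, a 2-fold minimum, the 6 libraries alone, no block, removal of a GC and length trend (mgcv 1.9.3) and leaving out each library. Leaving out both drug libraries of day 2 was added after the data had been seen. Promoters are 250 bases before the gene start from RefSeq (GRCm38.p6). The code was tested on simulated data.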

Additional observations from a re-analysis of the deposited data

Results flagged for a closer look

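The day 2 change differed between the drug cultures and NC, by edgeR's test of that difference, for 1009 genes. The count fell to 0 without the day 2 naloxone library and without the undifferentiated one, each left out alone. Among the genes chosen for description, the difference (log2 change in drug cultures minus log2 change in NC) was negative for the division and chromatin genes Cenpe (-1.55), Pola1 (-1.08), Mki67 (-1.13), Fam111a (-1.84), Depdc1a (-2.51), Atad2 (-1.89), Hells (-2.13) and Suz12 (-1.67), whose falls were larger in the drug libraries than in the single NC library of day 2. It was negative too for the RNA-processing and nucleolar genes Nop58 (-1.42), Ncl (-1.23), Srsf10 (-0.91) and Hnrnpu (-0.78).

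Among transcription factors the difference was -0.91 for Sox11, -1.68 for Clock, -1.40 for Tcf4, -2.005 for Rora and -1.53 for Nfib. Among receptors, signalling and surface genes it was -2.13 for Itga4, -1.25 for Chrdl1, -1.54 for Bmpr2, -0.71 for Insr, -1.53 for Vcan and -0.66 for Egfr. It was -0.61 for Sesn3, -1.20 for Elovl6, -1.54 for Elavl4 and -1.89 for Xist. The difference was positive for Tuba1b (0.51), Fdps (0.65), Elovl1 (0.79) and Hist2h2aa2 (5.91, a gene with few undifferentiated counts and near-identical copies). The GC content of transcripts moved with this contrast, as described above, and its part in these differences was not tested gene by gene.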

How the results depend on the processing

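The count of 9155 genes called at day 2 stayed within 1.5 times under all alternatives but a 2-fold minimum, which left 2823 genes (1221 higher, 1602 lower). Leaving out single libraries, or both drug libraries of day 2, gave 7243 to 9586 calls, with 3703 to 4811 higher and 3540 to 4775 lower. Without the replicate block 9163 genes were called. Of the 9155 genes, 5678 were called in all 17 alternatives other than the 2-fold minimum. The 1009 genes whose change differed between drugs and NC (19 higher, 990 lower) were less stable. DESeq2 size factors gave 653 (35 higher, 618 lower), no filter 1542 (41 and 1501), the DESeq2 test 506 (7 and 499), and removal of a GC and length trend within stages 389 (189 and 200). Leaving out 1 drug library gave 0 to 808 (0 to 8 higher, 0 to 802 lower).

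Some changes reversed when a GC and length trend was removed across libraries, most of them small, but that of Bmpr2 was -1.16 ± 0.32 in the main analysis. The log2 change was then -0.21 for Cdk4, 0.15 for Insr, -0.22 for Rpl11, -0.088 for Hk1, -0.014 for Phgdh, 0.42 for Atp6v1h, 0.59 for Bmpr2, 0.38 for Cdkn1b, 0.33 for Egfr, -0.19 for Olig2 and -0.19 for Id3. Egfr also had 0.055 by limma on log2(TPM + 1) or on log2(TPM + 0.1) and 0.27 without both drug libraries of day 2, and Vcan had 0.068 without them. The cause was not tested.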
